A study of Mus musculus with 12 samples.

Results

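The genes described here are 10 markers of the alveolar type 2 cell, taken by symbol from a table of 78298 mouse gene rows: Sftpc, Sftpb, Sftpa1, Sftpd, Napsa, Lamp3, Slc34a2, Lpcat1, Cxcl15 and Lyz1. They were followed in 12 RNA-seq libraries of mouse lung tissue, 3 in each of 4 groups that cross tissue (LLC tumours or the normal lung beside them) with treatment (HDM, which the series title spells out as house dust mite, or VEH). The labels give no strain, age, sex, dose or time, and do not spell out LLC or VEH. Both tissues of both treatments come from lungs with LLC tumours. They were cut apart by hand under a microscope, and no sorting of cells is described. Nothing states how many animals were used, and p-values measure the spread between these libraries.

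The alveolus is lined by flat type 1 cells, across which gas passes, and by cuboidal type 2 cells, which make surfactant. Surfactant is a film of phospholipid and protein that lowers surface tension, and type 2 cells store it in lamellar bodies before they release it. Type 2 cells also act as progenitors of type 1 cells, and their surfactant genes depend on the transcription factor Nkx2-1.

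The libraries held 20608682 to 32765364 counts. All 10 genes passed the filter on low counts, as 10 of 22190 genes tested. The names of the libraries begin with 1 of 6 prefixes, each held by 1 normal and 1 tumour library. For 2 prefixes the treatments differ: tumour HDM replicate 2 has the prefix of normal VEH replicate 2, and tumour VEH replicate 3 that of normal HDM replicate 3. Groups follow the sample labels throughout. Whether the labels or the prefixes of these 4 libraries are right is not known, and each comparison is also given without them. Tumour HDM replicate 3 had the lowest level of each of the 10 genes, and its values are also given separately. Levels are CPM, counts scaled to library size with TMM factors, and fold changes are on the log2 scale with their standard errors (SE).

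The promoters of the 4 surfactant protein genes are printed because these genes hold most of the summed level of the 10 and all fell in tumours under HDM. Each run is the 250 bases upstream of the annotated start on GRCm39, read 5′ to 3′ on the strand of the gene. Capitals mark matches, on either strand, to 3 short words known from binding sites of Nkx2-1 (CTCAAG and CAAGTG) and, as a looser pattern, GCNCTNNAG. The words can overlap each other, as they do in Sftpb.
Sftpc, chr14:70761525-70761774, minus strand: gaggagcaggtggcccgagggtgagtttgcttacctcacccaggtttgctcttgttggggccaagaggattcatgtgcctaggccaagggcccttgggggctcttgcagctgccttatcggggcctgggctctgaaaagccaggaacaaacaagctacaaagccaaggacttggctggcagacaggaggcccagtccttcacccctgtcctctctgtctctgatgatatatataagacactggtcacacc
Sftpb, chr6:72281344-72281593, plus strand: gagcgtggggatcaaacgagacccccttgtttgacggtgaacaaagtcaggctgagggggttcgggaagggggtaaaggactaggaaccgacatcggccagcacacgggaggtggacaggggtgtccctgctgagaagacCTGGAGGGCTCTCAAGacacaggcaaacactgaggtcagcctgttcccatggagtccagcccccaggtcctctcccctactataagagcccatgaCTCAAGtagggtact
Sftpa1, chr14:40853489-40853738, plus strand: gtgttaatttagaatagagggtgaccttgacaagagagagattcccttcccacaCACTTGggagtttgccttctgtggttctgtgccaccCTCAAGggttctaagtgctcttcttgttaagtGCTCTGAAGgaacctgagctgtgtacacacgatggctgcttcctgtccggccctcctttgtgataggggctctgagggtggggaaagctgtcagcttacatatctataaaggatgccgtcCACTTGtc
Sftpd, chr14:40907129-40907378, minus strand: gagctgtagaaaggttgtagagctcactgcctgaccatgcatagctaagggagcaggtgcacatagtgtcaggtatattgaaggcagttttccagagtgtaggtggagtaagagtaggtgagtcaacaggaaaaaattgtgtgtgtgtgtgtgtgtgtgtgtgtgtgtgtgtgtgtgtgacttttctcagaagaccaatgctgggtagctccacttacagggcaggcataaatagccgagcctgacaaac
Sftpb and Sftpa1 held 4 matches each, and Sftpc and Sftpd held 0. Over the 10 genes, 4 had a match to any of the words, against 33.9% of 15062 promoters of the same length. CTCAAG alone was in 3 of the 10 and in 13.5% of all promoters. A match is a run of letters and no evidence of binding, and a window without one says nothing of the factor.

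Surfactant protein C is a small hydrophobic peptide made almost only by type 2 cells, and its gene Sftpc (ENSMUSG00000022097, chromosome 14, 70758389 to 70761524) was the most abundant of the 10. Normal VEH libraries 1 to 3 had 8497, 21697 and 21129 CPM, and normal HDM libraries 25182, 21182 and 15192 CPM. Tumour VEH libraries had 1198, 4680 and 982 CPM, and tumour HDM libraries 1287, 1275 and 3.12 CPM. Every tumour library was below every normal library, and within each tissue the treatments overlapped. Group means were ordered normal HDM (20519 ± 5028, SD, n = 3), normal VEH (17107 ± 7462, n = 3), tumour VEH (2287 ± 2076, n = 3) and tumour HDM (855 ± 738, n = 3). Only the middle step of that order, from normal to tumour, was free of overlap. Sftpc fell in tumours under HDM (log2 difference -4.59, SE 1.46, edgeR quasi-likelihood test, Benjamini-Hochberg adjusted p = 0.0227). Under VEH the log2 difference was -2.90 ± 1.35 (SE), which did not pass (edgeR adjusted p = 0.108). In bulk tissue, fewer type 2 cells and less RNA per cell cannot be told apart.

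Per transcript length (TPM, from the deposited gene lengths), Sftpc was the second most abundant row of the table in 5 of 6 normal libraries, and ranked 5 in normal VEH replicate 1. In 5 tumour libraries it still ranked 5 to 25. In tumour HDM replicate 3 it ranked 10494.

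Surfactant protein B, which the lung cannot do without for film formation, is encoded by Sftpb (ENSMUSG00000056370, chromosome 6, 72281594 to 72291354). Its CPM were 3991, 4648 and 4208 in normal VEH, and 6516, 6022 and 4115 in normal HDM. In tumours they were 462, 1727 and 695 under VEH and 503, 524 and 0.64 under HDM. It had the most even level of the 10 across normal libraries, with a highest to lowest ratio of 1.63, and no tumour library reached the normal range. Sftpb fell under HDM (log2 difference -4.02, SE 1.41, edgeR adjusted p = 0.0351), and under VEH its log2 difference was -2.16 ± 1.31 (adjusted p = 0.204). A noncoding gene, Gm67669, overlaps Sftpb on the other strand and carried 217374 counts against 875207 for Sftpb, and the strand setting of the counting is not given in the sources used here, so reads of the pair may not be cleanly divided.

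Surfactant proteins A and D are collectins, soluble lectins that bind microbes, and their genes lie near each other on chromosome 14 (Sftpa1, ENSMUSG00000021789, 40853739 to 40858551; Sftpd, ENSMUSG00000021795, 40894170 to 40907128). Sftpa1 had 2185, 5005 and 3596 CPM in normal VEH, 7237, 7115 and 2328 in normal HDM, 307, 1103 and 386 in tumour VEH, and 331, 331 and 0.79 in tumour HDM. Sftpd had 753, 1622 and 1240 CPM in normal VEH, 2035, 1944 and 695 in normal HDM, 155, 498 and 159 in tumour VEH, and 154, 153 and 0.30 in tumour HDM. For both genes tumours lay below all normal libraries, and the same library was the highest of its group for both. Among all pairs of the 10 genes, these had the closest profiles over the 12 libraries, with a root mean square distance of 0.30 on the log2 scale. Under HDM both fell, Sftpa1 at a log2 difference of -4.65 (SE 1.44, edgeR adjusted p = 0.0204) and Sftpd at -3.92 (SE 1.38, adjusted p = 0.0349). Under VEH the log2 differences were -2.59 ± 1.31 for Sftpa1 and -2.15 ± 1.28 for Sftpd, and edgeR adjusted p were 0.137 and 0.196.

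**Figure D1:**
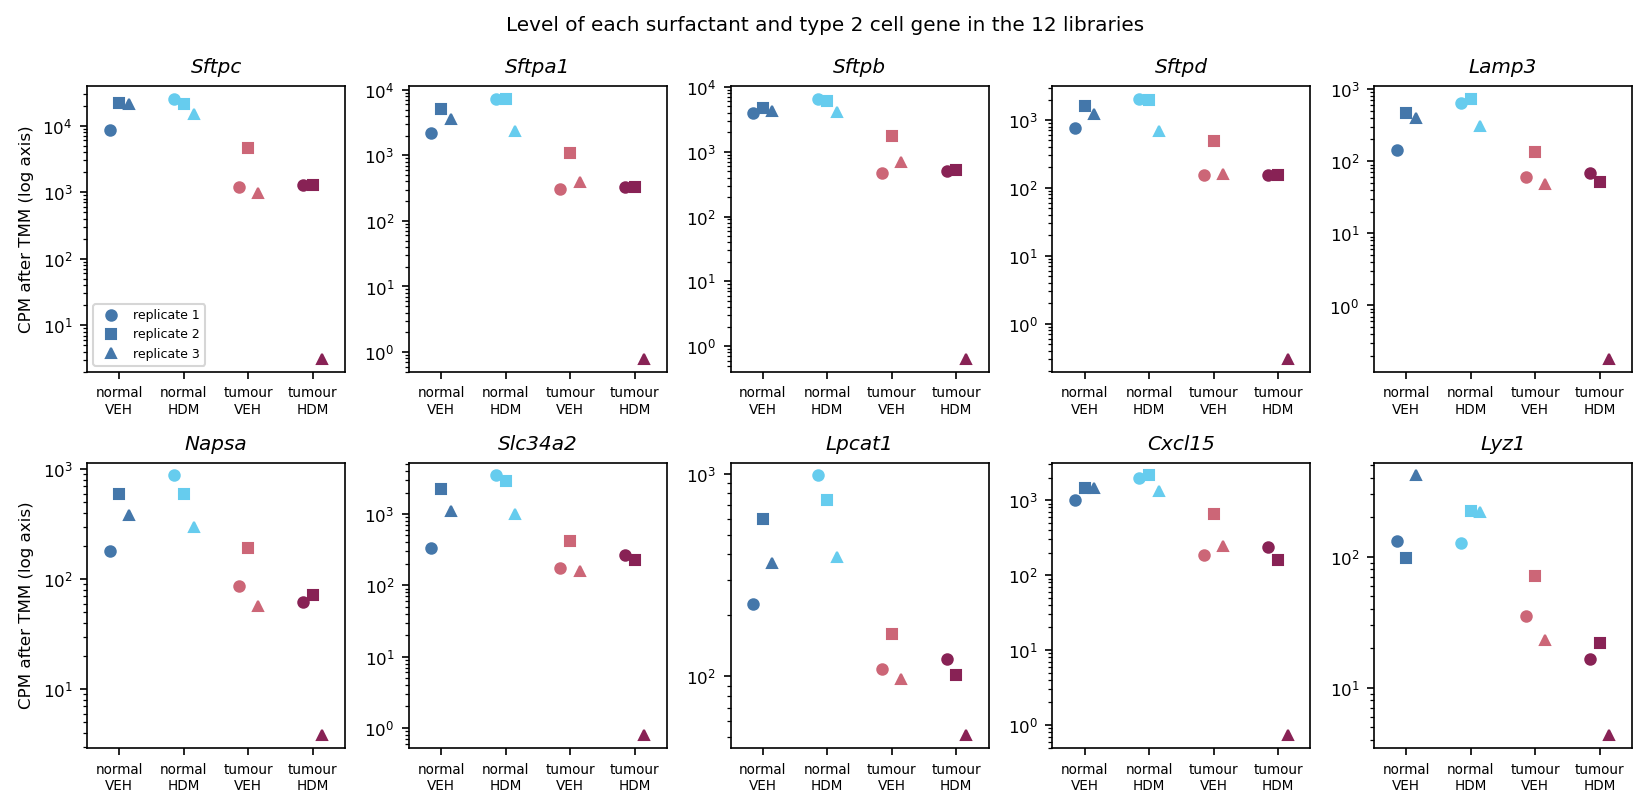
CPM after TMM (log axis) of each of the 10 genes in the 4 groups, 1 point per library and 1 symbol per replicate number. Tumour HDM replicate 3 is the lowest library for each gene; its gap is narrowest for Lpcat1, which had 51.2 CPM there and 97.3 to 162 CPM in the 5 others.

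Together the 4 made up 91.9% to 93.9% of the summed TPM of the 10 genes in normal libraries and 87.1% to 91.0% in 5 tumour libraries. In tumour HDM replicate 3 they made up 18.5%, where Lpcat1 and Lyz1 were the larger part. Sftpa1 was at 5.54 to 12.1 per 100 of Sftpc in normal libraries and at 8.52 to 14.2 per 100 in tumours, tumour HDM replicate 3 included at 9.13. Sftpb was at 10.2 to 24.0 per 100 of Sftpc in normal libraries and at 10.4 to 36.2 per 100 in tumours. These ratios to Sftpc overlapped between the tissues.

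Among genes of the secretory route, Napsa (ENSMUSG00000002204, chromosome 7, 44221804 to 44236295) encodes napsin A, an aspartic protease that helps cut the surfactant protein B precursor. Its CPM were 181, 590 and 384 in normal VEH, 875, 589 and 297 in normal HDM, 86.6, 192 and 57.0 in tumour VEH, and 61.6, 71.9 and 3.82 in tumour HDM. The highest tumour VEH library was above the lowest normal one, while under HDM the tissues did not overlap. It fell under HDM (log2 difference -3.68, SE 0.95, edgeR adjusted p = 0.0087), and under VEH its log2 difference was -1.78 ± 0.88 (adjusted p = 0.128). Gm15396, a noncoding gene on the opposite strand, overlaps its exons and carried 26519 counts against 89461.

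Lamp3 (ENSMUSG00000041247, chromosome 16, 19472128 to 19525125) encodes a membrane protein of the lamellar body, which is also known from mature dendritic cells. It had 145, 472 and 403 CPM in normal VEH, 636, 729 and 311 in normal HDM, 60.2, 135 and 47.8 in tumour VEH, and 68.5, 51.6 and 0.18 in tumour HDM. All tumour libraries were below all normal ones. Lamp3 fell under HDM (log2 difference -3.80, SE 1.28, edgeR adjusted p = 0.0294), and under VEH the log2 difference was -2.07 ± 1.19 (adjusted p = 0.184). Over all genes tested, 18.2% rose and 20.6% fell under VEH, and 23.0% rose and 28.9% fell under HDM. Of 10 mature dendritic cell markers, 3 rose and 1 fell under VEH, and 1 rose and 5 fell under HDM. Their medians were 0.73 and -0.87. They summed to 188 to 280 CPM in normal libraries and 468 to 602 in tumours, of which Fscn1, an actin-bundling protein, made up 368 to 455 CPM in tumours. Fscn1 rose under both treatments and Socs2 fell, while Ccr7 was at a log2 difference of 0.93 ± 0.38 under VEH, not called, and fell under HDM (-1.54 ± 0.39). Their part in the level of Lamp3 was not tested. In tumour HDM replicate 3, where Lamp3 had 6 counts, these markers diverged. Fscn1 was at 1361% of the normal HDM mean, and the others ran from 0% (Ccl17) to 85.9% (Relb), with Ccr7 at 19.2% and Ccl22 at 12.0%.

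Slc34a2 (ENSMUSG00000029188, chromosome 5, 53195423 to 53229006) encodes the sodium-phosphate cotransporter of the type 2 cell surface. Its CPM were 336, 2259 and 1106 in normal VEH, 3466, 2894 and 986 in normal HDM, 176, 413 and 159 in tumour VEH, and 263, 225 and 0.79 in tumour HDM. It varied most among normal libraries, 10.3-fold from lowest to highest, and tumour VEH replicate 2 exceeded normal VEH replicate 1. It fell under HDM (log2 difference -3.91, SE 1.41, edgeR adjusted p = 0.0387), and under VEH its log2 difference was -2.31 ± 1.32 (adjusted p = 0.180). Set against Sftpc per length, it stood at 0.815 to 2.84 per 100 in normal libraries and 1.82 to 5.21 per 100 in tumours.

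Lpcat1 (ENSMUSG00000021608, chromosome 13, 73615316 to 73664580) encodes an acyltransferase that remodels phosphatidylcholine into the saturated form found in surfactant, and it is expressed in other cells too. It had 227, 601 and 364 CPM in normal VEH, 980, 742 and 387 in normal HDM, 109, 162 and 97.3 in tumour VEH, and 121, 101 and 51.2 in tumour HDM. No tumour library reached the normal range. Lpcat1 fell under both treatments, at a log2 difference of -1.70 under VEH (SE 0.45, edgeR adjusted p = 0.0149) and -2.95 under HDM (SE 0.47, adjusted p = 7.6e-04). It had the smallest log2 difference of the 10 in each, and the smallest SE. Per 100 of Sftpc in TPM it was at 0.384 to 0.868 in normal libraries, 0.772 to 2.21 in 5 tumours, and 366 in tumour HDM replicate 3.

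The last pair are secreted proteins. Cxcl15 (ENSMUSG00000029375, chromosome 5, 90942393 to 90950926) encodes lungkine, a neutrophil chemokine of mouse lung epithelium. It had 997, 1445 and 1461 CPM in normal VEH, 1962, 2133 and 1340 in normal HDM, 187, 647 and 245 in tumour VEH, and 238, 160 and 0.73 in tumour HDM. The tissues did not overlap. It fell under HDM (log2 difference -3.77, SE 1.27, edgeR adjusted p = 0.0296), and under VEH the log2 difference was -1.86 ± 1.18 (adjusted p = 0.223).

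Lyz1 (ENSMUSG00000069515, chromosome 10, 117123698 to 117128775) encodes a lysozyme that marks part of the type 2 cells. Its CPM were 132, 98.3 and 415 in normal VEH, 127, 224 and 218 in normal HDM, 35.4, 71.0 and 23.2 in tumour VEH, and 16.6, 21.8 and 4.34 in tumour HDM. It fell under VEH (log2 difference -2.32, SE 0.70, edgeR adjusted p = 0.0245) and under HDM (log2 difference -3.73, SE 0.74, adjusted p = 0.0023). Lyz2, its neighbour, is on both the macrophage list and the list of further type 2 markers used here. It was at 1110 to 3268 CPM in tumours and 2450 to 12243 CPM in normal libraries. Gm67237, on the opposite strand, overlaps exons of Lyz2 and carried 1058536 counts against 1595886. The transcripts of the pair are 96.0% identical over 1268 aligned bases, and 35.8% of the 32-base words of Lyz1 occur in other genes, most of them in Lyz2. Lyz1 made up 0.405% to 2.42% of the pair by TPM in tumours and 1.11% to 6.31% in normal libraries, so reads of Lyz2 placed on Lyz1 could form part of the low values, which was not tested.

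Counted over the 10 genes, 2 were lower in tumours under VEH (Lpcat1 and Lyz1) and 10 under HDM by edgeR, with 0 higher in either. Over all genes tested, 20.6% were called lower and 18.2% higher under VEH, and 28.9% lower and 23.0% higher under HDM. Libraries did not overlap for 8 of the 10 under VEH (all but Napsa and Slc34a2) and for 10 under HDM, against 28.5% and 33.5% of all genes that were lower without overlap. The median log2 difference of the 10 was -2.15 under VEH and -3.86 under HDM, beside -0.11 and -0.08 for all genes. Scaled by library totals instead, the median of all genes moved to 0.03 and 0.10. The 10 genes stayed below 0 in all 318 fits of tumour against normal that were made, which reuse the same 12 libraries. The comparison under VEH is less settled than its count shows: fitted on the 6 VEH libraries alone, 8 of the 10 passed. Fitted on the 6 HDM libraries alone, 3 of the 10 passed under HDM (Napsa, Lpcat1 and Lyz1). Without the 4 libraries of conflicting prefixes, 0 passed under VEH and 3 under HDM, and Sftpc had log2 differences of -2.23 ± 2.03 and -5.04 ± 2.30 (edgeR adjusted p = 0.432 and 0.128).

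**Figure D2:**
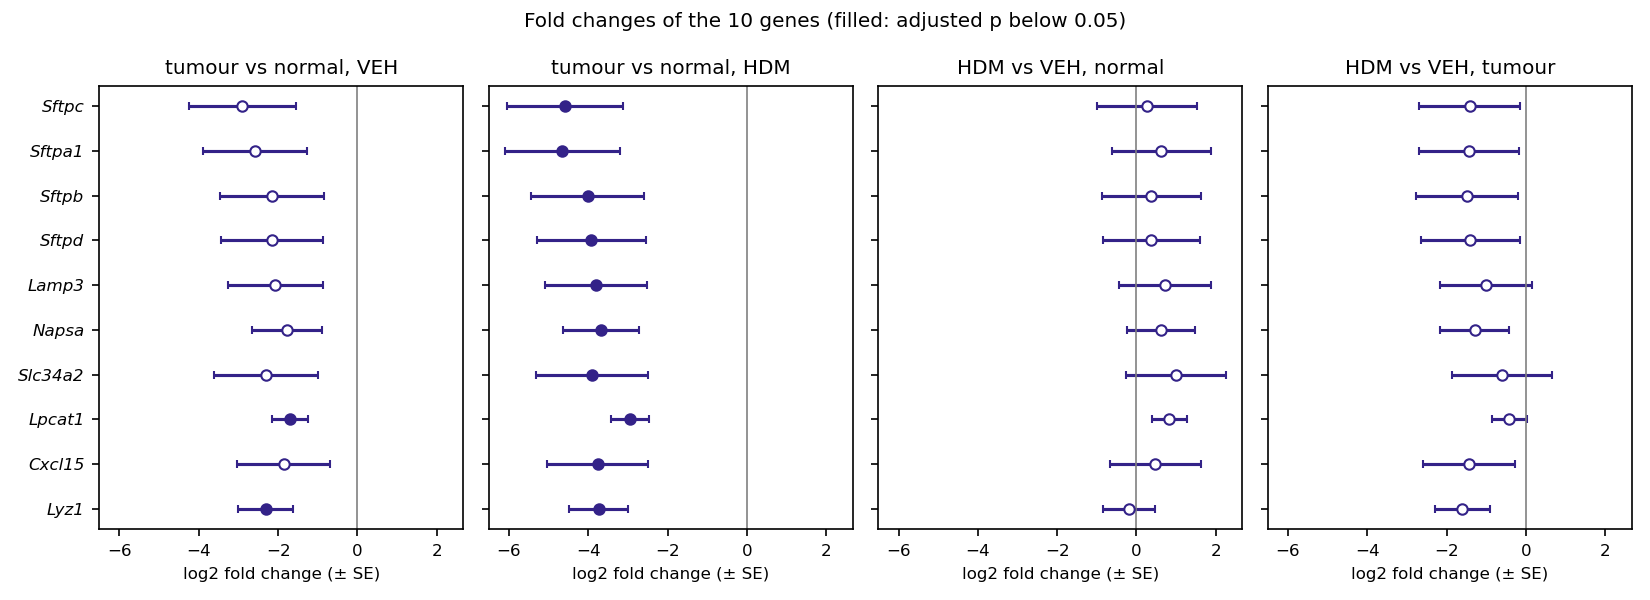
Log2 fold change of the 10 genes (points) with its SE (bars) in 4 comparisons; filled points passed an adjusted p of 0.05 in edgeR. All 20 differences of tumour against normal lie below 0, and 12 of them are filled.

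Tumour HDM replicate 3 was nearly empty of these transcripts. It had 103 counts of Sftpc (95% exact Poisson interval 84.1 to 125, which covers counting error only), 26 of Sftpa1, 21 of Sftpb and 10 of Sftpd, among 30187882. The 10 genes took 0.0072% of its counts, against 0.280% to 0.970% in the other tumours and 1.57% to 4.70% in normal libraries. Relative to the normal HDM mean, the exceptions were Lpcat1 at 7.28%, Lyz1 at 2.29% and Napsa at 0.651%, with the others at 0.0402% (Cxcl15) or less. Lpcat1 had 1688 counts (1608 to 1771), Lyz1 143 (121 to 168) and Napsa 126 (105 to 150), the last close to Sftpc in counts. Epcam, Cdh1 and Elf5, which mark epithelium, were at 0 there, and Scgb1a1, the club cell secretoglobin, was at 2.27 CPM. Krt8 and Krt18, keratins that tumour cells can make, were at 335 and 187 CPM. Without this library all 10 genes still passed under HDM, and Sftpc had a log2 difference of -3.86 (SE 0.77, edgeR adjusted p = 0.0036).

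Tumour VEH replicate 2 was the highest tumour library for each of the 10 genes. Its Sftpc was 27.4% of the normal VEH mean, against 7.0% and 5.74% in tumour VEH replicates 1 and 3. The same library had 20766 CPM of the 8 club cell markers, against 529 and 6510 in the other VEH tumours, and 1748 CPM of the 10 type 1 cell markers, against 624 and 672. The part of adjoining lung in these values was not tested. Without it the log2 difference of Sftpc under VEH was -3.97 ± 1.66 (edgeR adjusted p = 0.0833), and the count of 2 genes stayed.

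Set against the normal library of the same name prefix, 60 values of 60 were below 100%. They come from 10 genes in 6 pairs of libraries and are not independent. In the group fits, 11898 of 22190 genes lay below 0 under VEH and 11616 under HDM. Sftpc was at 14.1%, 22.2% and 6.46% in tumour VEH replicates 1 to 3 and at 6.07%, 5.88% and 0.0124% in tumour HDM replicates 1 to 3. Lpcat1 was at 47.8%, 44.5% and 25.1%, and at 16.3%, 16.8% and 5.23%, in the same order. Among the 3 HDM tumours the highest value of any gene was 22.1% (Lyz1 in replicate 2), and among the 3 VEH tumours 52.5% (Slc34a2 in replicate 1). With the prefix as a block, 1 gene passed under VEH and 3 under HDM: Lpcat1, Lyz1 and Napsa under HDM were at -3.44, -4.10 and -5.22 (edgeR adjusted p = 0.0040, 0.0034 and 0.0231).

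**Figure D3:**
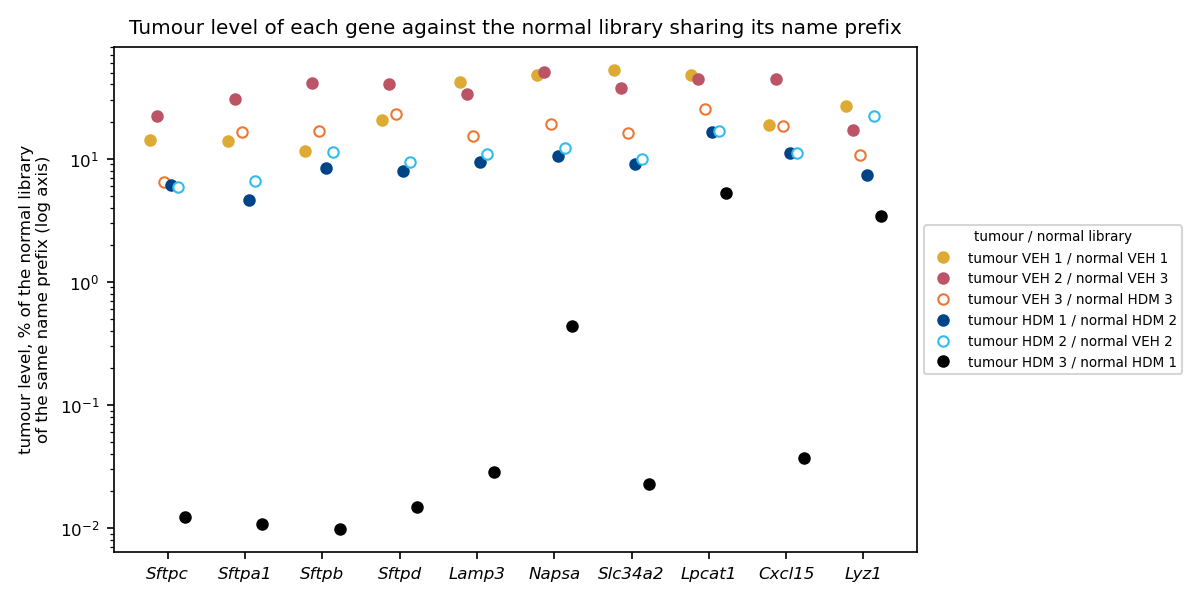
Level of each gene in a tumour library as a percentage of the normal library with the same name prefix (log axis), 1 colour per prefix; open points are the 2 prefixes whose treatment labels conflict. Tumour HDM replicate 3 (black) is lowest for each gene, from 0.00977% for Sftpb to 5.23% for Lpcat1.

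The effect of HDM within a tissue was addressed next. In normal lung none of the 10 passed (edgeR, adjusted p from 0.891 to 1, 0 at an unadjusted p below 0.05, and 0 by DESeq2). Among all genes 0% passed, and 5.54% had an unadjusted p below 0.05. The log2 differences of HDM against VEH were above 0 for 9 genes, from 0.26 ± 1.25 for Sftpc to 0.99 ± 1.27 for Slc34a2, and -0.18 ± 0.66 for Lyz1, with Lpcat1 at 0.82 ± 0.44. The grouping of normal VEH replicate 2 and normal HDM replicate 3 by label bears on this comparison directly. These SE rest on a spread shared with the tumours, and allow changes of more than 1 unit in either direction for most of the genes. Fitted on the normal libraries alone, SE ran from 0.28 (Sftpb, at 0.39) to 0.74 (Slc34a2, at 1.01). Sftpc was at 0.28 ± 0.44 and Lpcat1 at 0.84 ± 0.46 in that fit, and none of the 10 passed. The width of the range therefore depends on the shared spread. Without the 4 conflicting libraries, the difference of Slc34a2 was 2.15 ± 1.93 and that of Lpcat1 1.55 ± 0.48 (edgeR adjusted p = 0.714 and 0.298), and none of the 10 passed. With the prefix as a block, Sftpc was at 2.32 ± 2.49 and Slc34a2 at 2.35 ± 2.37, and again none passed. That fit can compare the treatments within a tissue only through the 2 prefixes whose labels conflict, so it is no check independent of them.

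In tumours, HDM against VEH gave log2 differences from -0.43 ± 0.44 (Lpcat1) to -1.60 ± 0.68 (Lyz1), all 10 below 0 and none past the test (edgeR adjusted p from 0.279 to 0.843, 1 gene at an unadjusted p below 0.05, and 0 by DESeq2). Over all genes 0.0946% passed, and 16.7% had an unadjusted p below 0.05. By CPM, libraries did not overlap for 2 of the 10, Sftpd and Lyz1, where 10.7% of all genes were lower without overlap. For Sftpd this did not hold by TPM. Tumour HDM replicate 1, at 224 TPM, lay above tumour VEH replicates 1 and 3, at 188 and 200 TPM. Sftpc, at -1.42 ± 1.28 in all libraries, was at -0.80 ± 0.66 without tumour HDM replicate 3 and at -0.35 without tumour VEH replicate 2. Slc34a2 went from -0.62 to -0.0015 without tumour HDM replicate 3. Lpcat1 went from -0.43 to -0.11 in the same way, and Lyz1 from -1.60 to -1.14. Without the 4 conflicting libraries the differences were larger and less precise, -2.15 ± 2.02 for Sftpc and -2.33 ± 0.86 for Lyz1, and none passed (edgeR adjusted p from 0.390 to 0.800).

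The interaction, which asks whether the tumour difference itself depends on treatment, ran from -1.25 ± 0.63 (Lpcat1) to -2.07 ± 1.77 (Sftpa1). None passed (edgeR adjusted p from 0.549 to 0.775, 0 at an unadjusted p below 0.05, 0 by DESeq2), and 0% of all genes did, while 9.39% had an unadjusted p below 0.05. Its size depended on single libraries: for Sftpc it was -1.68 in all libraries, -0.61 without tumour VEH replicate 2 and -1.05 without tumour HDM replicate 3. Without the 4 conflicting libraries Sftpa1 was at -3.37 ± 2.74 and Lpcat1 at -2.19 ± 0.68. With the prefix as a block Sftpc was at -4.77 ± 3.31 and Slc34a2 at -5.39 ± 3.11. None of the 10 passed in any of these fits. That 10 genes passed under HDM and 2 under VEH is therefore no shown difference between the treatments.

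Normal lung itself was not uniform. The 3 normal libraries that share a prefix with an HDM tumour (HDM replicates 1 and 2 and, against its own label, VEH replicate 2) were compared with the other 3, a grouping chosen after the values were seen and given as a description. Each of the former was above each of the latter for 8 of the 10 genes, all but Cxcl15 and Lyz1. Of all genes, 13.9% were higher in this way. For Slc34a2 the ranges were 2259 to 3466 against 336 to 1106 CPM. Of 10 alveolar macrophage markers, 8 were likewise higher, and Chil3, a chitinase-like protein of these macrophages, had 5271 to 7705 against 75.3 to 203 CPM. Macrophage and monocyte markers gave 7 of 10. Of the 17 other type 2 markers 8 were higher, among them the complement gene Hc with 607 to 987 against 103 to 251 CPM, while Cbr2 overlapped, with a ratio of means of 0.548. Of 8 genes of transitional alveolar cells 3 were higher, among them Lcn2, an iron-binding defence protein, with 510 to 947 against 31.1 to 65.3 CPM. Type 1 cell markers gave 0 of 10 and endothelial markers 0 of 10. Club cell markers diverged: 1 of 8 was higher, Scgb3a1, with 69.1 to 1268 against 6.04 to 55.4 CPM. Scgb1a1 went the other way, with 21507 to 50964 against 53358 to 97559 CPM, where 13.0% of all genes were lower in each of the former libraries. Cyp2f2 and Hp overlapped, with ratios of means of 0.478 and 0.545, and the median ratio of the 8 was 0.533.

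**Figure D4:**
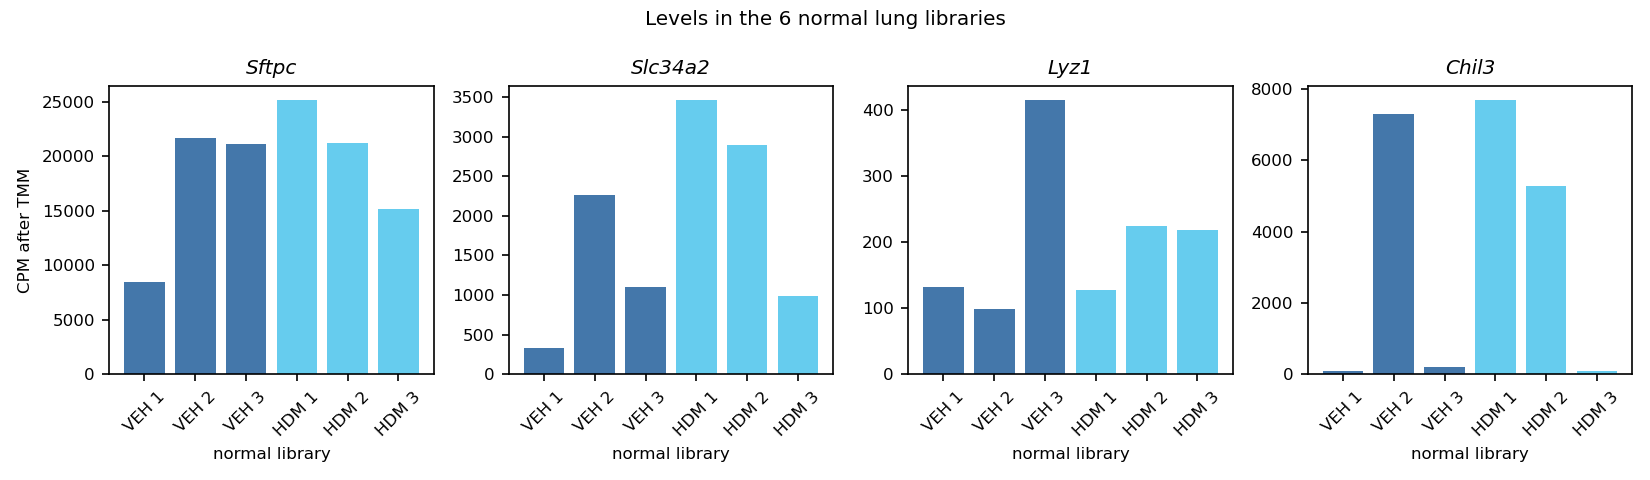
CPM after TMM of 4 genes in the 6 normal libraries (bars, 1 library each; dark VEH, light HDM). Slc34a2 and Chil3 are high in VEH 2, HDM 1 and HDM 2, Sftpc is lowest in VEH 1, and Lyz1 is highest in VEH 3.

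Other genes of the type 2 cell followed in the same fits. Of 18 further markers 17 were tested. Under HDM 16 fell and Il33, an alarmin, had a log2 difference of 0.36 ± 0.70, and under VEH 6 fell. The median was -1.98 under VEH and -3.90 under HDM. Abca3, the lamellar body lipid pump, fell in both (log2 -1.74 under VEH and -2.85 under HDM). Cbr2, a carbonyl reductase, fell in both too (-3.43 and -6.27). In tumour VEH replicates 1 to 3 Cbr2 was at 0.635%, 21.9% and 5.24% of the normal VEH mean. Cyp2f2, of the club cell list, was at 0.508%, 24.1% and 5.18% there. In tumour HDM replicate 3 they parted, at 1.13% and 0.0165% of the normal HDM mean. The part of club cells in the level of Cbr2 was not tested. Cd74, the invariant chain of MHC class II, was at 1.06 ± 0.47 under VEH (not called) and fell under HDM (log2 -2.32 ± 0.49). Its interaction, like that of every gene of these lists, did not pass.

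Of 10 transcription factors, 6 fell under VEH and 9 under HDM, and Nfatc3 rose in both, by 0.34 and 0.39. Nkx2-1 was at 173 to 241 CPM in normal libraries, at 9.43, 54.0 and 19.3 in tumour VEH, and at 15.2, 12.7 and 0.0607 in tumour HDM. It fell under HDM (log2 difference -4.53, SE 1.17, edgeR adjusted p = 0.0089), and under VEH its log2 difference was -2.78 ± 1.08 (adjusted p = 0.0634). Unlike most of the 10 genes, Nkx2-1 differed little among the normal libraries. Foxa2, a factor of lung endoderm, fell under both treatments (log2 -2.18 and -4.31), and so did Cebpa (-1.53 and -2.27).

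Genes of surfactant lipid synthesis went both ways. Of 13, 5 fell and 1 rose under VEH, and 8 fell and 1 rose under HDM, with medians of -0.57 and -1.15. Chpt1, which makes phosphatidylcholine, fell in both (log2 -2.41 under VEH and -3.19 under HDM), and so did Gpam, which starts glycerolipid synthesis (-1.48 and -2.12). The fatty acid desaturase gene Scd1 fell under HDM (log2 -3.12, edgeR adjusted p = 0.0052). Elovl6, a fatty acid elongase, rose by 2.20 and 2.96. Fasn, Acaca and Acly passed in neither comparison.

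For surfactant processing and turnover, 12 of 13 genes were tested. Of these, 4 fell and 2 rose under VEH, and 5 fell and 2 rose under HDM, with medians of -0.20 and -0.88. Beside these counts and those of lipid synthesis, 20.6% of all genes fell and 18.2% rose under VEH. Under HDM these shares were 28.9% and 23.0%. Adgrf5, a receptor that senses surfactant, fell in both (log2 -2.89 under VEH and -4.50 under HDM), and so did Rab38, which serves lamellar bodies (-2.28 and -5.06). Hps1 and Ap3b1, which sort proteins to such organelles, rose by 1.24 and 0.64 under VEH and by 1.40 and 0.61 under HDM.

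**Figure D5:**
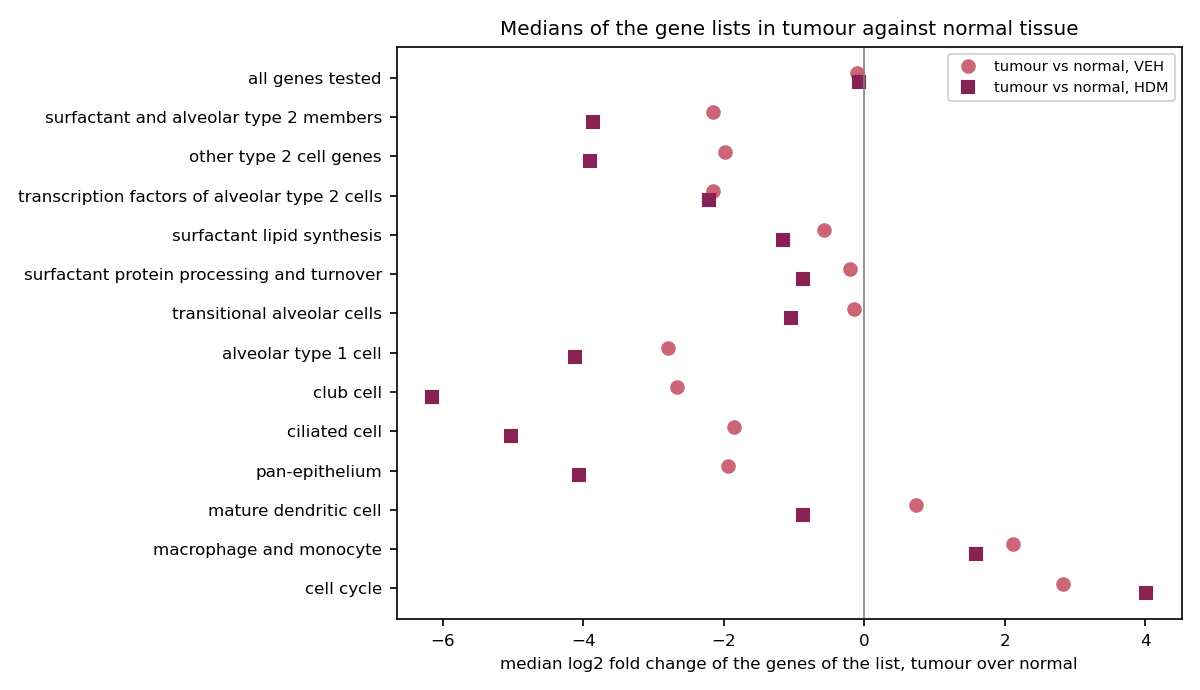
Median log2 fold change of each gene list, tumour over normal, under VEH (circles) and HDM (squares), with all genes tested at the top. The 10 genes are at -2.15 and -3.86, the type 1 cell list at -2.79 and -4.12, and the cell cycle list at 2.83 and 4.01.

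Markers of several other lung cells also fell in tumours, while others rose or went both ways. In the counts of lists, fell and rose mean past the edgeR test. They stand beside 20.6% of all genes lower and 18.2% higher under VEH, and 28.9% and 23.0% under HDM. Type 1 cell genes fell for 7 of 10 under VEH and 10 of 10 under HDM, and endothelial genes for 10 of 10 in both. Club cell genes passed as lower for 0 of 8 under VEH, where 7 lay below 0, and for 7 of 8 under HDM. Their medians were -2.66 and -6.15. Ciliated cell genes passed as lower for 0 of 8 under VEH, where all 8 lay below 0, and for 8 of 8 under HDM. Their medians were -1.85 and -5.02. General epithelial genes passed as lower for 0 of 9 under VEH, where 7 lay below 0 and Krt18 rose, and for 7 of 9 under HDM. Their medians were -1.93 and -4.06. Cell cycle genes rose for 10 of 10 in both. Macrophage and monocyte genes rose for 7 of 10 under VEH and 6 of 10 under HDM, where 1 (Lyz2) fell, with medians of 2.12 and 1.59. Lyz2 is counted among the further type 2 markers too. Of 8 fibroblast genes, 3 rose and 3 fell in each. Club cells are known to make some surfactant proteins too, among them B and D. Their part in the levels of any of the 10 genes was not tested.

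By profile over the 12 libraries, the genes nearest to Sftpc among 12266 candidates were Cldn18, a claudin of alveolar epithelium, at a root mean square log2 distance of 0.44, Gm67669 at 0.50 and Mal2 at 0.59. Cldn18 and Gm67669 were among the nearest 3 for each of the 4 surfactant protein genes and for Cxcl15. Lamp3 lay nearest to Lamb3 (0.29), Irx1 (0.35) and Egfl6 (0.38), and Napsa to Gm15396 (0.35) and Lpl (0.42). Slc34a2 lay nearest to Hc (0.26), Mlc1 (0.39) and Lamb3 (0.40), and Lpcat1 to Gm14493 (0.28), Abcg1 (0.28) and Abca3 (0.29). Lyz1 lay nearest to Grb14 (0.36), Slc4a8 (0.41) and Dll1 (0.41), with no type 2 marker of the lists among its 3. Of the 10 genes the farthest pair was Sftpb and Lpcat1, at 2.59. All these profiles share the step between the tissues, and they share the 12 libraries.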

How the data were processed

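RNA of 12 mouse lung libraries was sequenced by a stranded dUTP method from both ends, per the labels' protocols, which do not settle between poly(A) selection and ribosomal depletion. The authors deposited unnormalized counts, 1 row per Ensembl gene and 1 column per library, beside a length for each gene, per the file headers. STAR, Trim Galore, featureCounts, Subread and the mm39 build are named in the submitters' processing notes, without versions. The annotation release and the strand setting are not given in the sources used here.

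Symbols and coordinates came from GENCODE M39 on GRCm39, which holds 78168 of the 78298 identifiers. Counts were fitted in R 4.3.3 with edgeR 4.0.16: filterByExpr (minimum count 10), TMM, 1 coefficient per group over all 12 libraries, robust quasi-likelihood F-test, two-sided, Benjamini-Hochberg adjustment over 22190 genes, calls at an adjusted p below 0.05. Each standard error is the size of the log2 value over the root of its F statistic. The procedure was tested on simulated data. DESeq2 1.42.0 was an alternative. TPM used the deposited lengths. Promoters were read from GRCm39 at the start of the Ensembl canonical transcript.

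All 10 genes are named, as are list genes beside a count of their list and, for each of the 10, the 3 genes of average log2 CPM of at least 3 with the nearest centred profile, 1 of which is not reported here. The genes and lists were chosen with earlier results of these data known. The labels give 1 batch for all libraries. Same-numbered tumour and normal libraries did not deviate together, but libraries sharing a prefix did so no more clearly (correlations -0.22 to 0.18). The VEH libraries of replicate 1 share both number and prefix and were at -0.22. These correlations therefore cannot show whether number or prefix pairs the libraries, and the main fit held no paired term.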

Additional observations from a re-analysis of the deposited data

How the results depend on the processing

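In tumour against normal, all fits of the 10 genes kept their direction, and the counts that passed moved as follows. Under VEH (2 of 10) they were 0 with no filter on low counts, 4 with DESeq2, 8 with only the groups compared, 1 with the library-name prefix as a block, 0 without the 4 libraries of conflicting prefixes, and 0 to 2 when leaving out 1 library (0 without tumour VEH replicate 1 or 3, 1 without normal VEH replicate 3). Under HDM (10 of 10) they were 3 with no filter, with only the groups compared, with the prefix as a block and without the 4 libraries, and 3 to 10 when leaving out 1 library (5 without normal HDM replicate 1 or 2, 4 without tumour HDM replicate 1, 3 without tumour HDM replicate 2). The cause of these losses was not tested. Lamp3 was not tested where each library had to hold 10 counts or more.

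Over all genes, calls for HDM against VEH in tumours (21) were 8 with library totals, 52 with no filter, 53 where each library had to hold 10 counts or more, 1308 with DESeq2, 0 with only the groups compared, 1 with a replicate block, 0 with the prefix block, 0 without the 4 libraries and 0 to 24 when leaving out 1 library. In normal lung (0) DESeq2 called 38, and for the interaction (0) DESeq2 called 219 and leaving out 1 library 0 to 6. Tumour against normal under VEH (8624) gave 5603 without the 4 libraries and 5733 to 9070 when leaving out 1, and under HDM (11512) 9822 to 10695.

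For HDM against VEH in normal lung, Lyz1 (-0.18) turned to 1.56 ± 0.44 with the prefix block. That block compares the treatments within a tissue only through the 2 conflicting prefixes. Leaving out 1 library gave -0.53 to 0.72 for Lyz1, above 0 without normal VEH replicate 3 (0.72) or normal HDM replicate 1 (0.039). Sftpc (0.26) was at 2.32 ± 2.49 with the prefix block and 0.66 ± 1.95 without the 4 libraries. Leaving out 1 library gave -0.061 (without normal VEH replicate 1) to 0.47 for Sftpc. None was called. The replicate block left 2 and 10 genes called under VEH and HDM. Same-numbered tumour and normal libraries had correlations of -0.22, -0.30 and -0.023 under VEH and -0.10, 0.16 and 0.16 under HDM.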
